A study of Homo sapiens with 11 samples.

Results

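The genes described here are 10 members of the YAP/TEAD pathway, 3 regulators (YAP1, WWTR1 and TEAD1) and 7 target genes (CCN1, CCN2, ANKRD1, AXL, LATS2, AMOTL2 and AJUBA). They were taken by symbol from a table of 37247 gene identifiers, and all 10 were found and passed the filter on low values (1 TPM or more in 3 or more of the 6 libraries), which left 14160 genes for testing. The messages were measured by RNA sequencing of cells labelled MDA-MB-231, a human line established from a triple-negative breast cancer and grown with serum. There were 3 libraries labelled Control-KD, with the genotype given as WT, and 3 labelled H2AS40-KD, whose genotype is given as a knockdown of S40-type H2A, meaning H2A histones that carry serine at residue 40. The sources used here do not give how the knockdown was made, whether 1 clone was used or whether replicates were separate cultures, so p-values cover only library-to-library spread, which could be technical. The comparison asked how the pathway's messages differ between libraries with and without that knockdown label.

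YAP1 and WWTR1, whose protein is also called TAZ, are coactivators that cannot bind DNA themselves and act through the TEAD transcription factors. Kinases of the Hippo pathway, ending in LATS1 and LATS2, phosphorylate both coactivators and keep them out of the nucleus, and several target genes encode proteins that act back on this step. In breast cancer cells of the mesenchymal type, nuclear YAP and TAZ are known for driving growth, motility and the secretion of matricellular proteins, but their activity is set largely at the protein level and was not measured here.

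Values were in transcripts per 1000000 (TPM), a level per gene length, and each library summed to 1000000, so no depth and no counting interval can be given. H2AC25, a histone H2A gene recollected as S40-type, had 32.4 ± 1.10 TPM in Control-KD, against 33.6 ± 1.14 TPM in the H2AS40-KD-labelled libraries (SD, n = 3 each). For its sum with H2AC7, which was at most 2.97 TPM, the exact permutation test (two-sided) gave p = 0.50, where 0.10 is the smallest possible. No fall was seen in this pair. That does not settle whether the knockdown worked, and the libraries are called by their label. One library differed from the rest: replicate 3 of Control-KD lay at 31.2 on the first principal component, which held 29.6% of the variance, and the others at -12.0 to 0.784. Of the markers of the labelled line, VIM, the mesenchymal filament protein, ran from 2247 to 2281 TPM with overlapping groups. The keratins KRT8 (3503 to 3629 TPM) and KRT18 (2236 to 2291 TPM) also had overlapping groups. CD44, a hyaluronan receptor, was lower in every library with the H2AS40-KD label, at 359 ± 6.23 and 310.1 ± 12.9 TPM (SD, n = 3 each), and so was EGFR, at 47.4 ± 2.15 and 43.1 ± 0.603 TPM (SD, n = 3 each), without passing limma's test over all genes (adjusted p = 0.0543 and 0.264). Of the listed genes that a triple-negative mesenchymal line is known to lack or to hold at low levels, most were also present. TFF1, an estrogen-responsive secreted peptide, ran from 887 to 956 TPM and CDH1 (E-cadherin) from 56.8 to 64.8 TPM. EPCAM ran from 163 to 174 TPM, ERBB2 from 27.7 to 31.9 TPM and ESR1, the estrogen receptor, from 12.3 to 21.2 TPM. PGR, the progesterone receptor, went the other way and was low, at most 2.18 TPM in any library. A list of 12 luminal epithelial genes, chosen after these values were seen, summed to 2145, 2137 and 1999 TPM in Control-KD replicates 1 to 3. The sums were 2203, 2168 and 2235 TPM in the H2AS40-KD-labelled libraries. The lowest sum was thus that of Control-KD replicate 3, the library that differed from the rest. Levels within the list varied widely: KRT19, the highest, ran from 756 to 866 TPM, GATA3 from 436 to 471 TPM and TFF3, the lowest, from 7.15 to 13.1 TPM. The groups did not overlap in 9 of the 12 genes, 6 of them higher and 3 lower with the H2AS40-KD label. Of all tested genes, 24.2% did not overlap (12.9% higher, 11.3% lower). Whether the libraries hold the labelled line, alone or at all, was not tested, so the line is called by its label. The part of these genes in the results below was not tested, and in bulk RNA fewer cells of a type and less RNA per cell cannot be told apart. Blood markers were at or near 0 for PTPRC (at most 0.707 TPM), CD3E (at most 0.0555 TPM) and MS4A1 (0), and the 8 listed summed to between 6.83 and 11.3 TPM over all libraries, most of it HBA1. The 7 fibroblast and endothelial markers summed to between 7.51 and 10.9 TPM, most of it COL1A1.

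TEAD factors recognise the sequence GGAATG, which reads CATTCC when the site lies on the other strand. The 250 bases before annotated starts of the members were read from RefSeq on GRCh38.p14 to show where it lies in the targets whose levels are compared below. The table held 12 starts for 8 members, and CCN1 and TEAD1 were not among them. CCN2 had 3 matches, ANKRD1 had 2, and 1 start each of YAP1, AMOTL2, AJUBA and AXL had 1. No match lay in these windows for LATS2 or either start of WWTR1. Of 35116 RefSeq promoters of the same length, 11.9% held at least 1 match, 0.94% at least 2 and 0.0826% at least 3, counting both strands, and no matches overlapped each other in the members. The sequences of CCN2 (chr6:131951373-131951622, minus strand), ANKRD1 (chr10:90921088-90921337, minus strand) and the downstream annotated start of AMOTL2 (chr3:134374448-134374697, minus strand) are shown because they hold the matches of the most motif-rich members and of the target that rose. Capitals mark the matches, and each is read 5′ to 3′ on the strand of the gene.
CCN2: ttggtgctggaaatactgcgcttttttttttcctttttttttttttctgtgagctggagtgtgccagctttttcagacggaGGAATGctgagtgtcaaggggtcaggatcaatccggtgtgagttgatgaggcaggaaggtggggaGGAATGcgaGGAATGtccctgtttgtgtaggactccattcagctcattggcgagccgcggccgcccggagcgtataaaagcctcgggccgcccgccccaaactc
ANKRD1: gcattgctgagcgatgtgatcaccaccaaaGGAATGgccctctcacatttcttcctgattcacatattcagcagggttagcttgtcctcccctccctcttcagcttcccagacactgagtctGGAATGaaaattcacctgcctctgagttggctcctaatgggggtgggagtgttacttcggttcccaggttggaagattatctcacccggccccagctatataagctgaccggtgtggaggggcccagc
AMOTL2: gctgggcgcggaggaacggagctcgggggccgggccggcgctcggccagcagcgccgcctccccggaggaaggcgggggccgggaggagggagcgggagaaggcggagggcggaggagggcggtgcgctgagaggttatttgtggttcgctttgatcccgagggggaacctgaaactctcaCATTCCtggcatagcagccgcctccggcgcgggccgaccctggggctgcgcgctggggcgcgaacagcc
In CCN2 the matches began 169, 104 and 95 bases before the start, so the latter pair is nearly adjacent. In ANKRD1 they began 220 and 128 bases before the start, and in AMOTL2 the single match was on the other strand, 69 bases before. A match of 6 letters is a description of the sequence and does not show that a factor binds there.

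**Figure D1:**
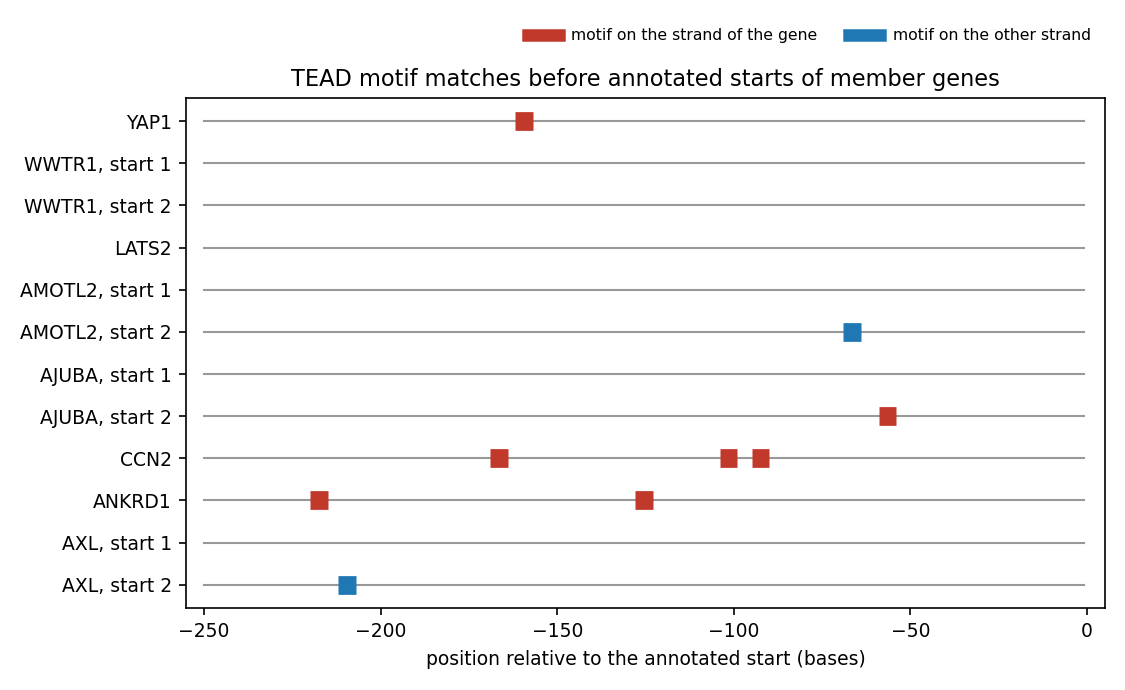
Positions of the 6-base TEAD motif in the 250 bases before each annotated start of 8 members, with the start at the right end of each line (x axis: bases relative to the start). CCN2 carries 3 matches and ANKRD1 2, and WWTR1 and LATS2 carry none in these windows.

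Of the 10 members, 2 passed the test and they moved in opposite directions: CCN2 fell and AMOTL2 rose in the H2AS40-KD-labelled libraries. The test was limma on log2(TPM + 1) with Benjamini-Hochberg adjustment over all 14160 genes, and fold changes below are on that scale, H2AS40-KD minus Control-KD. Over all tested genes 1.26% were called, 0.516% higher and 0.742% lower. The members' median log2 fold change was 0.02, against 0.01 over all tested genes, with 6 members positive and 4 negative. The 2 groups did not overlap in 5 of the 10 members, where 24.2% of all tested genes did not overlap. As the members were chosen with earlier results of these data known, these shares are a description only.

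**Figure D2:**
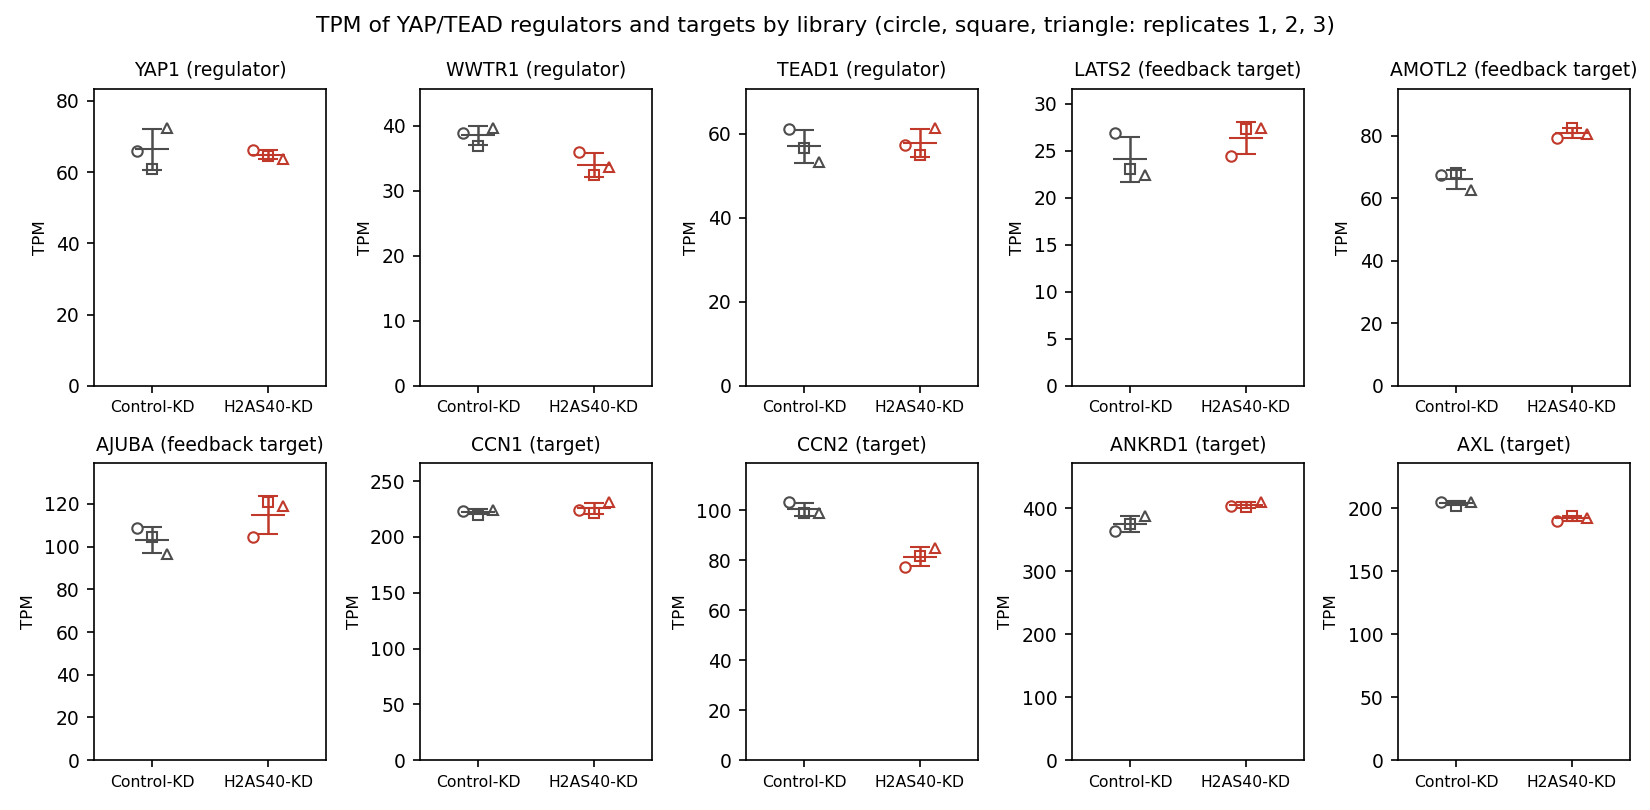
TPM of each member in each library (y axis: TPM, from 0; each panel has its own scale), with circle, square and triangle for replicates 1, 2 and 3, and the mean with its SD for each group of 3. CCN2 and AMOTL2 show the widest separation between groups, AXL, ANKRD1 and WWTR1 are separated by less, and the groups overlap in the other 5.

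Among the regulators, 0 of 3 were called by limma, with 1 (WWTR1) at an unadjusted p under 0.05. YAP1 (ENSG00000137693.13, chromosome 11, 102110447 to 102233424) had 65.9, 60.8 and 72.5 TPM in Control-KD replicates 1 to 3 and 66.3, 64.7 and 63.8 TPM in the H2AS40-KD-labelled libraries. The latter lie inside the range of the former, at means of 66.4 ± 5.84 and 64.9 ± 1.25 TPM (SD, n = 3 each). The log2 fold change was -0.03, with a 95% interval from -0.19 to 0.13 (limma adjusted p = 0.873). Without Control-KD replicate 3, the highest library, it was 0.04.

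WWTR1 (ENSG00000018408.14, chromosome 3, 149517235 to 149724788) had 38.8, 36.9 and 39.7 TPM in Control-KD, against 35.9, 32.4 and 33.6 TPM in the H2AS40-KD-labelled libraries. Every library with the H2AS40-KD label was lower than every Control-KD library, at 34.0 ± 1.79 against 38.5 ± 1.41 TPM (SD, n = 3 each), a difference of -11.8%. With a log2 fold change of -0.18 (SE 0.06) it did not pass over all genes (limma adjusted p = 0.223). The interval ran from -0.32 to -0.04.

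TEAD1 (ENSG00000187079.16, chromosome 11, 12674421 to 12944737), the DNA-binding partner, had 61.2, 56.6 and 53.4 TPM in Control-KD, against 57.3, 54.9 and 61.5 TPM in the H2AS40-KD-labelled libraries. The groups overlapped nearly completely, and the log2 fold change was 0.02 with an interval from -0.14 to 0.18 (limma adjusted p = 0.904). Its sign turned to -0.02 when replicate 3 of either group was left out. Antisense genes are annotated over WWTR1, TEAD1 and CCN2, and as the labels do not say whether strand was kept, reads of these partners cannot be told apart.

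The targets that feed back on the pathway were AMOTL2, AJUBA and LATS2, of which 1 rose. AMOTL2 (ENSG00000114019.14, chromosome 3, 134355345 to 134375417), a protein of the angiomotin family that binds YAP and holds it at junctions, had 67.5, 68.1 and 62.6 TPM in Control-KD. It had 79.3, 82.5 and 80.6 TPM in the H2AS40-KD-labelled libraries. The lowest of these exceeded the highest Control-KD library by more than the spread within either group, at means of 66.0 ± 3.01 and 80.8 ± 1.60 TPM (SD, n = 3 each). The rise was 22.3%, a log2 fold change of 0.29 (SE 0.05, limma adjusted p = 0.0440). The call ended when any 1 of the 6 libraries was left out, at log2 fold changes of 0.25 to 0.31 (limma adjusted p = 0.0546 to 0.180). It also ended with no filter on low values (0.0733) and without limma's intensity trend (0.121), and adjusted p-values over all alternatives ran from 0.0351 to 0.180.

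AJUBA (ENSG00000129474.15, chromosome 14, 22971177 to 22982551), a LIM-domain protein that restrains LATS kinases, had 109, 105 and 96.6 TPM in Control-KD, against 105, 121 and 119 TPM in the H2AS40-KD-labelled libraries. Replicate 1 with the H2AS40-KD label lay among the Control-KD libraries and the other two lay above them. The log2 fold change was 0.15, with an interval from -0.01 to 0.31 (limma adjusted p = 0.344).

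LATS2 (ENSG00000150457.8, chromosome 13, 20973036 to 21061586), the kinase that inactivates YAP and TAZ, had the lowest level of the members. It had 26.8, 23.0 and 22.5 TPM in Control-KD, against 24.4, 27.3 and 27.4 TPM in the H2AS40-KD-labelled libraries, with overlapping groups. The log2 fold change was 0.13, with an interval from -0.08 to 0.33 (limma adjusted p = 0.516). All 3 feedback targets thus had positive fold changes, as 7515 of the 14160 tested genes did.

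Of the 4 other targets, CCN2 fell and the rest did not pass. CCN2 (ENSG00000118523.5, chromosome 6, 131948176 to 131951372), the secreted matricellular protein once called connective tissue growth factor, had 103, 99.0 and 98.8 TPM in Control-KD. It had 77.4, 81.9 and 85.0 TPM in the H2AS40-KD-labelled libraries. The highest of these stayed below the lowest Control-KD library, at means of 100.4 ± 2.55 and 81.4 ± 3.81 TPM (SD, n = 3 each). The level fell by 18.9%, a log2 fold change of -0.30 (SE 0.05, limma adjusted p = 0.0400). The call ended when any 1 of the 6 libraries was left out, at log2 fold changes of -0.33 to -0.26 (limma adjusted p = 0.0551 to 0.153), and with no filter (0.0721) or no intensity trend (0.121). Over all alternatives the adjusted p-values ran from 0.0315 to 0.169.

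CCN1 (ENSG00000142871.16, chromosome 1, 85580761 to 85583950), the paralog of CCN2 also known as CYR61, had 223, 219.8 and 224 TPM in Control-KD, against 224, 221 and 231 TPM in the H2AS40-KD-labelled libraries. The groups overlapped, and the interval of its log2 fold change, from -0.05 to 0.09 around 0.02, was among the narrowest of the members (limma adjusted p = 0.783).

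ANKRD1 (ENSG00000148677.6, chromosome 10, 90912096 to 90921087), an ankyrin-repeat protein first known from muscle, had 363, 375 and 388 TPM in Control-KD, against 403, 403 and 410.2 TPM in the H2AS40-KD-labelled libraries. The groups did not overlap, at 375 ± 12.1 and 405 ± 4.13 TPM (SD, n = 3 each), but a log2 fold change of 0.11 (SE 0.03) did not pass over all genes (limma adjusted p = 0.159).

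AXL (ENSG00000167601.11, chromosome 19, 41219223 to 41261766), the receptor tyrosine kinase for GAS6, had 205, 202 and 205 TPM in Control-KD, against 190.0, 194 and 193 TPM in the H2AS40-KD-labelled libraries. Here too the groups did not overlap, at 204 ± 1.59 and 192 ± 2.02 TPM (SD, n = 3 each). The difference of -5.8% had a log2 fold change of -0.09 (SE 0.03) and did not pass (limma adjusted p = 0.218). The non-overlapping targets were therefore AMOTL2 and ANKRD1 on the higher side and CCN2 and AXL on the lower side, where 12.9% and 11.3% of all tested genes did not overlap in those directions.

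**Figure D3:**
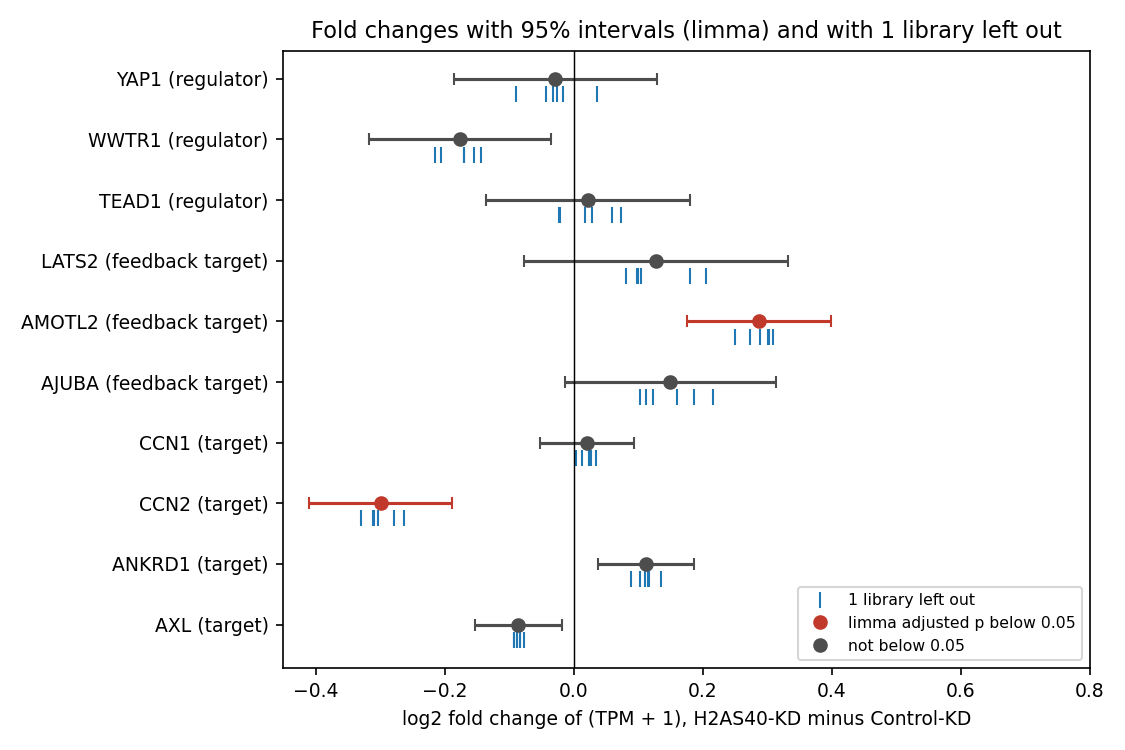
Log2 fold change of each member on the log2(TPM + 1) scale (x axis, H2AS40-KD minus Control-KD) with limma's 95% interval, red where the adjusted p is below 0.05, and blue ticks for the fits that leave out 1 library. AMOTL2 at 0.29 and CCN2 at -0.30 are the 2 called genes, and the ticks cross 0 for YAP1 and TEAD1.

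By level, the targets included both the highest and the lowest of the members. In Control-KD the order was ANKRD1, CCN1, AXL, AJUBA, CCN2, YAP1, AMOTL2, TEAD1, WWTR1 and LATS2, from 375 to 24.1 TPM. Only AJUBA with CCN2 and YAP1 with AMOTL2 overlapped as neighbours in that order. In the H2AS40-KD-labelled libraries, AMOTL2 stood above YAP1 and next to CCN2 (80.8 and 81.4 TPM), with overlapping ranges, and no other neighbours overlapped. ANKRD1 lay at the 97.6th percentile of the mean TPM of tested genes, CCN1 at the 95.2th and LATS2 at the 56.6th.

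Within a library, paralogs can be compared without the scaling between libraries. The share of YAP1 in the summed TPM of YAP1 and WWTR1 was 62.9, 62.2 and 64.6% in Control-KD and 64.9, 66.7 and 65.5% in the H2AS40-KD-labelled libraries. The groups did not overlap, at 63.3 ± 1.24% and 65.7 ± 0.904% (SD, n = 3 each, two-sided exact permutation test, p = 0.10). That is the smallest p that 3 libraries against 3 allow. Adjusted over the 5 paralog comparisons, 3 of them chosen after the values were seen, this p was 0.167. TEAD1 held 40.4 ± 2.25% and 39.9 ± 1.16% of the summed TPM of TEAD1 to TEAD4 (SD, n = 3 each, exact permutation p = 0.80). The difference of -0.457 percentage points was 0.794 without Control-KD replicate 1.

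The other 3 comparisons were chosen after the values were seen, so their p-values are descriptive only. The ratio of CCN2 to CCN1 was 0.463, 0.451 and 0.441 in Control-KD and 0.345, 0.370 and 0.368 in the H2AS40-KD-labelled libraries. It was lower in all 3 of the latter (exact permutation p = 0.10, adjusted 0.167). AMOTL2 to AMOTL1, another angiomotin, had a ratio of 3.66, 3.11 and 3.05 in Control-KD against 4.33, 4.27 and 4.40 with the H2AS40-KD label (exact permutation p = 0.10, adjusted 0.167). AMOTL2 was thus the more abundant of that pair in every library, and by more with the H2AS40-KD label. LATS2 to LATS1 had overlapping ratios of 1.39 ± 0.0499 and 1.49 ± 0.0984 (SD, n = 3 each, exact permutation p = 0.30, adjusted 0.375).

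**Figure D4:**
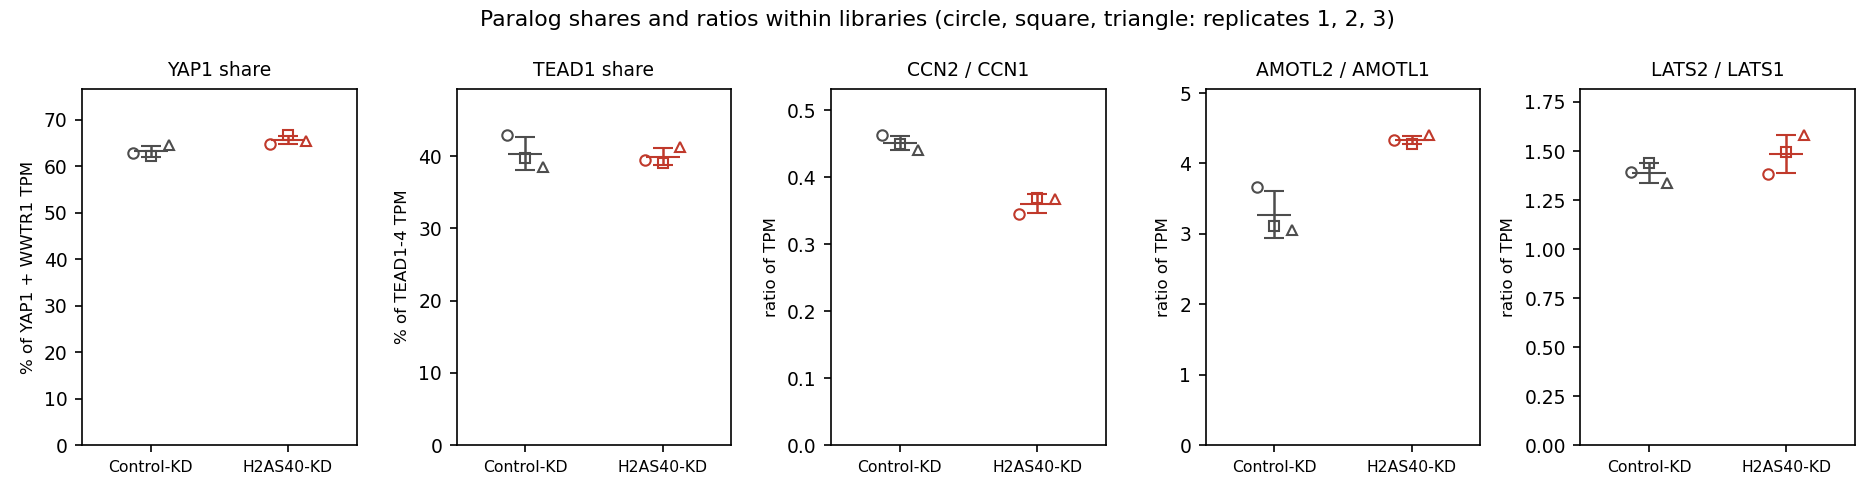
Paralog shares (% of summed TPM) and ratios of TPM in each library, y axes from 0, with circle, square and triangle for replicates 1, 2 and 3 and the mean with its SD for each group of 3. CCN2 relative to CCN1 is lower and AMOTL2 relative to AMOTL1 higher in all 3 libraries labelled H2AS40-KD, and the TEAD1 share and LATS2 to LATS1 ratio overlap.

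Of the rest of the pathway, 0 of 49 tested genes upstream of or beside YAP were called by limma, where 1.26% of all tested genes were. An unadjusted p under 0.05 was found in 6 of the 49 and in 16.5% of all tested genes. The 21 genes of the Hippo kinase core and its activators had 20 tested, with a median log2 fold change of 0.02. FRMD6, a membrane-linked activator of the kinases, had the smallest p, with 159 ± 3.66 and 184 ± 6.86 TPM (SD, n = 3 each, limma adjusted p = 0.0669). MAP4K4, a kinase that can phosphorylate LATS, was next at 82.6 ± 2.15 and 74.0 ± 0.750 TPM (SD, n = 3 each, limma adjusted p = 0.126). LATS1 had 17.4 ± 1.71 and 17.8 ± 0.456 TPM (SD, n = 3 each, limma adjusted p = 0.874).

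Of 7 TEAD paralogs and VGLL cofactors, 5 were tested and VGLL1 and VGLL2 were at or near 0. TEAD4, at 37.9 ± 0.452 and 40.2 ± 1.41 TPM (SD, n = 3 each), had the smallest p (limma adjusted p = 0.468). TEAD3 had 28.2 and 29.0 TPM and TEAD2 18.1 and 18.0 TPM, so TEAD1 was the most abundant TEAD in both groups. Of 25 other regulators of YAP and LATS, 24 were matched and tested, DLG5 being the one without a match. LLGL1, a cell polarity protein, had the smallest p, with 14.1 ± 0.277 and 11.7 ± 0.535 TPM (SD, n = 3 each, limma adjusted p = 0.163), and the list median was -0.003.

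Among 32 further genes recollected as YAP or TAZ targets, 31 were tested, of which 2 rose and 1 fell, where 0.516% of all tested genes rose and 0.742% fell. FOSL1, a subunit of the AP-1 factor that binds beside TEAD at many enhancers, had 228, 231 and 223 TPM in Control-KD, against 276, 269.9 and 288 TPM in the H2AS40-KD-labelled libraries. It rose by 22.2%, a log2 fold change of 0.29 (SE 0.03, limma adjusted p = 0.0182). ETS1, a transcription factor of the ETS family, had 117, 116 and 111 TPM in Control-KD, against 138, 133 and 137 TPM with the H2AS40-KD label, and rose by 18.8% (log2 fold change 0.25, SE 0.04, limma adjusted p = 0.0338). NT5E, the ectoenzyme CD73 that makes adenosine, had 103, 105 and 101 TPM in Control-KD, against 86.6, 85.1 and 84.4 TPM with the H2AS40-KD label. It fell by 16.9% (log2 fold change -0.26, SE 0.04, limma adjusted p = 0.0250). In none of these genes did the groups overlap, and each call ended when any 1 library other than Control-KD replicate 3 was left out.

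The further targets did not share a direction. Their median log2 fold change was -0.01, with 15 positive and 16 negative, from -0.47 for CCN3, a paralog of CCN1 and CCN2, to 0.56 for GADD45A, a growth-arrest protein. CCN3 had 30.3 ± 2.73 and 21.6 ± 2.44 TPM (SD, n = 3 each, limma adjusted p = 0.0838). GADD45A had 139 ± 25.9 and 203 ± 2.72 TPM (SD, n = 3 each, limma adjusted p = 0.103), with Control-KD replicate 3 the low library at 109 TPM, and was called without that library (log2 fold change 0.40, limma adjusted p = 0.0132). These 2 are named as the ends of the range, after their values were seen. The groups did not overlap in 15 of the 31, 6 higher and 9 lower, where 24.2% of all tested genes did not overlap (12.9% higher, 11.3% lower). An unadjusted p under 0.05 was found in 14 of the 31 and in 16.5% of all tested genes. The list was chosen with earlier results of these data known, so these shares are a description only.

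**Figure D5:**
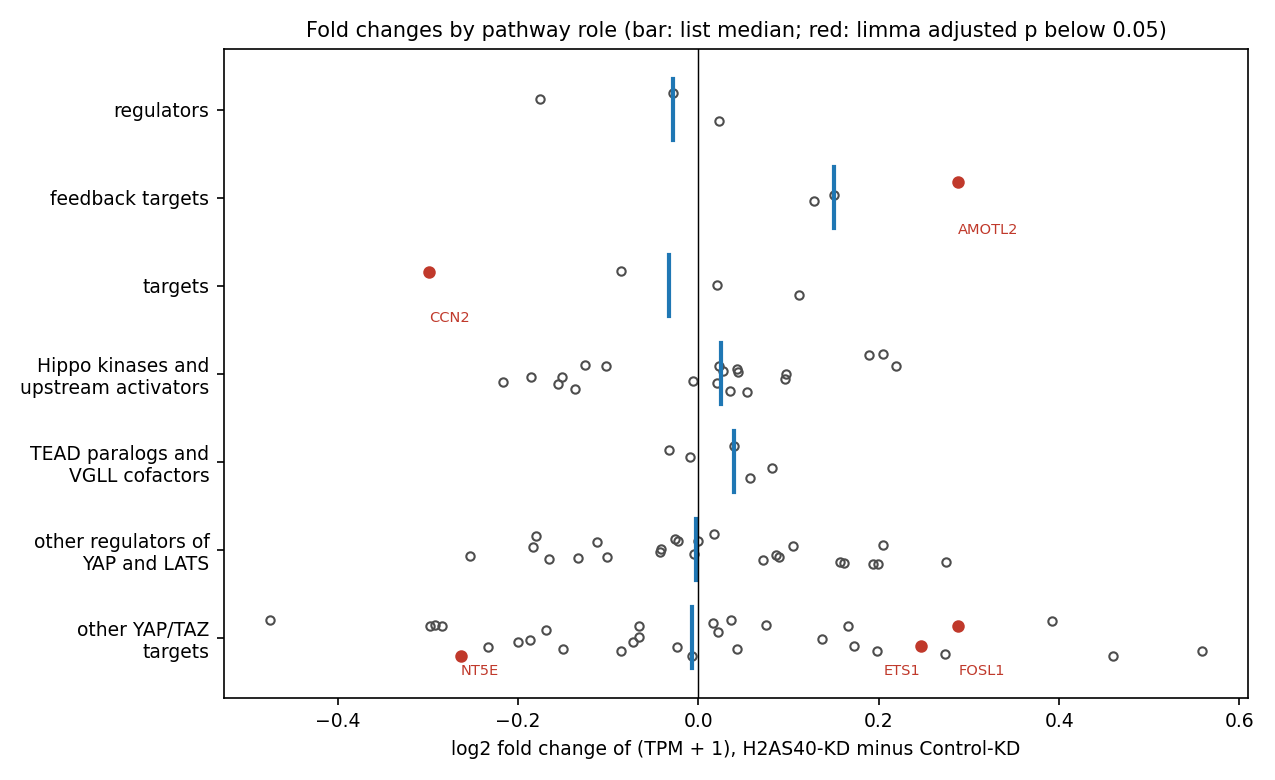
Log2 fold changes on the log2(TPM + 1) scale (x axis, H2AS40-KD minus Control-KD) of tested genes by role in the pathway, 1 point a gene, with a bar at each list's median and called genes in red. List medians lie between -0.03 and 0.15, and the called genes (AMOTL2, CCN2, FOSL1, ETS1 and NT5E) lie on both sides of 0.

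CCN2 had the smallest p of the members, and the genes whose pattern was most like it were sought among 10706 other tested genes with a symbol and a mean of at least 5 TPM. Likeness was the root mean square difference between log2(TPM + 1) values over the 6 libraries, each gene centred on its own mean. The nearest were UBE2L6 (0.0236), ATP1B1 (0.0308), ITGB1 (0.0337), GSN (0.0344) and TSPAN6 (0.0353). ITGB1, the integrin beta 1 chain, had 371 TPM in Control-KD, against 308 TPM with the H2AS40-KD label. With 6 libraries and so many genes such close patterns are a description only.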

How the data were processed

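Gene-level TPM values for 6 RNA libraries were deposited by the authors, and every library summed to 1000000. The sources used here do not name the tool that made them. Bowtie2, MACS2 and hg38 are named with no role, per the submitters' processing notes. Identifiers were matched to symbols without their version (34436 of 37247). Coordinates and promoters are RefSeq's on GRCh38.p14. Depth is unknown, since TPM keep none.

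Genes reaching 1 TPM in 3 or more libraries were tested on log2(TPM + 1) with limma 3.58.1 in R 4.3.3 (eBayes with an intensity trend, two-sided, Benjamini-Hochberg over all tested genes, threshold 0.05). This fit was also run on simulated data with independent noise, where the recovery check covered only changes larger than any called among the members. Single values used two-sided exact permutation tests (scipy 1.17.1). No library repeated another (identical values in 0.113% of tested genes or fewer). Alternatives were pseudocounts 0.1 and 0.5, a filter of 5 TPM or none, scaling by median-of-ratios or quantiles, no intensity trend, a block for the replicate number, and leaving out each library.

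The members and gene lists were chosen with earlier results of these data known. Named genes were the members, called genes of the wider lists or else a list's smallest p, the LATS and TEAD paralogs, H2AC7, H2AC25 and the 5 genes most like CCN2. The others were named after their values were seen. The S40-type pair is from recollection, since no protein sequence was at hand. The series' 5 ChIP samples (input included) are not analysed here.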

Additional observations from a re-analysis of the deposited data

How the results depend on the processing

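Over the 14 alternatives, 137 of 140 member fold changes kept their sign. The exceptions were YAP1 without Control-KD replicate 3 (0.036), and TEAD1 without Control-KD replicate 3 (-0.023) and without H2AS40-KD replicate 3 (-0.021); the cause was not tested. With 1 library left out, YAP1 ran from -0.089 to 0.036 and TEAD1 from -0.023 to 0.073. The count of 178 called genes was 98 with no filter, 10 without an intensity trend, and 5 to 159 with 1 library left out. The 2 called member targets became 0 with no filter, 0 without an intensity trend and 0 in every fit with 1 library left out, which have fewer samples. No regulator was called under any alternative by limma. Of the wider lists, 3 calls became 0 without an intensity trend and 0 to 4 with 1 library left out. The TEAD1 share difference was -1.38 to 0.794 percentage points with 1 library left out, and 0.794 without Control-KD replicate 1. With the replicate block, 0 genes were called over all genes, 0 among the targets and 0 in the wider lists. The replicate numbers showed no pairing: same-numbered libraries had deviations correlated at -0.0101, -0.0642 and -0.0015, and 0 of 6 libraries correlated best with their own number. Because TPM keep no depth, counting error could not be separated from the spread between libraries.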

Other observations

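SCRIB, a cell polarity protein that restrains YAP, had 139 and 142 TPM in Control-KD replicates 1 and 2 but 51.0 TPM in Control-KD replicate 3, against 115, 130 and 121 TPM in the H2AS40-KD-labelled libraries. FJX1, listed as a YAP target, had 39.0 and 37.6 TPM in Control-KD replicates 1 and 2 and 24.9 TPM in replicate 3, against 38.0 to 42.9 TPM in the H2AS40-KD-labelled libraries. Both were chosen after their values were seen, and the cause was not tested. TSPAN6, the fifth gene by likeness to CCN2, did not pass the test itself (limma adjusted p = 0.114), with 18.1 TPM in Control-KD and 14.7 TPM in the H2AS40-KD-labelled libraries.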
